A study of Mus musculus with 6 samples.

Results

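The nuclear lamina and the LINC complex (linker of nucleoskeleton and cytoskeleton) were examined at the transcript level in cultured mouse muscle satellite cells (MuSCs), the stem cells of skeletal muscle. The members were chosen by gene symbol, by a rule that names no measured value: the lamins Lmna, Lmnb1 and Lmnb2, the SUN-domain genes Sun1 and Sun2, the nesprin genes Syne1 and Syne2, and the inner nuclear membrane genes Emd, Lbr and Tmpo. The choice was nonetheless made with earlier results of these data known. All 10 symbols had a row among the 20654 genes of the count table.

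MuSCs were sorted by FACS as VCAM1+, CD31-, CD45-, Sca1- cells from mice of the C57BL/6 background and cultured for 3 d in growth medium on Matrigel before total RNA was taken for RNA-seq. The study asked which transcripts differ when PIEZO1, a mechanosensitive cation channel of the plasma membrane, is deleted. There were 3 control libraries, given as wild type in the labels and as Pax7CreERT2/+ in a figure legend of the study. The 3 Piezo1 cKO libraries came from Piezo1 flox/flox; Pax7CreERT2/+ mice. The Pax7 locus drives a tamoxifen-inducible Cre, so recombination is directed to MuSCs, and 4-OH TMX at 1 µM was added to the medium of both groups. By that legend both groups carried the Cre, and by the methods both met the drug. For experiments on isolated cells the methods also describe tamoxifen injection of the mice. The age of the mice used for RNA-seq was not given in the sources used here, nor whether each library came from a separate animal. The p-values below therefore measure the spread between these libraries, which may be partly technical. Library totals were 740936, 931168 and 891531 counts in control 1 to 3 and 810096, 726378 and 769295 counts in Piezo1 cKO 1 to 3, each count being a unique molecular identifier (UMI).

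The lamina is a meshwork of intermediate filament proteins under the inner nuclear membrane, built of A-type lamins (lamin A and C, both from Lmna) and B-type lamins (from Lmnb1 and Lmnb2). SUN proteins span the inner membrane and bind nesprins of the outer membrane, and the nesprins in turn hold actin, microtubule motors or intermediate filaments, so that force on the cytoskeleton reaches the lamina. Emerin (Emd) and the LAP2 proteins (Tmpo) carry a LEM domain that binds the chromatin protein encoded by Banf1, while the lamin B receptor (Lbr) binds B-type lamins and heterochromatin and is also a sterol reductase. The pathway is well known in muscle, since mutations in LMNA and EMD cause Emery-Dreifuss muscular dystrophy.

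None of the members passed the test between the groups. Of the 10 genes, 7 were abundant enough to be tested, and 0 of the 7 reached an adjusted p below 0.05 (edgeR quasi-likelihood test with Benjamini-Hochberg adjustment over 8551 genes), where 0.784% of all tested genes did, 40 of them (0.468%) being higher and 27 (0.316%) lower in Piezo1 cKO. The count of members at an unadjusted p below 0.05 was also 0, against 11.9% of all tested genes, and DESeq2, which called 0.674% of the genes it tested, and limma-voom, which called 0.632%, likewise found 0 members at either threshold, though DESeq2 gave no adjusted p for Lmnb1 and Lbr. The smallest adjusted p among the members was 0.573, for Emd. The estimated log2 fold change was above 0 for 3 tested members and below 0 for 4, with a median of -0.07, against 0.0023 over all tested genes. Bulk RNA does not separate fewer cells of a type from less RNA per cell. What the data do give for each member is a level in every library and a bound on the size of any difference, and these follow by role.

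Before the members, the targeted gene itself was examined. Piezo1 (chr8:122481698-122551329 of GRCm38, minus strand) had 11, 5 and 6 counts in control 1 to 3 and 7, 12 and 9 in Piezo1 cKO 1 to 3, or 9.25 ± 5.38 and 11.9 ± 3.41 CPM (counts scaled to a library total of 1e+06, with factors from the trimmed mean of M-values, TMM; SD, n = 3 per group). The groups overlapped, and the mean of the libraries labelled Piezo1 cKO was not below that of control (log2 fold change 0.42, SE 0.46; edgeR adjusted p = 0.791, with the gene added to the fit because it lay under the count filter). The gene overlaps Ctu2 and Gm20388 on the opposite strand. The pooled counts gave a rate ratio of 1.35 (95% exact interval for counting error, 0.744 to 2.47). The primer was oligo-dT, so reads lie towards the 3′ end of transcripts, and the exons removed by Cre are not given in the sources used here. The Piezo1 count therefore does not check the deletion, the study's separate RT-qPCR of Piezo1 was not analysed here, and every direction below rests on the library labels.

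The labelled cell type was checked against marker genes. All 8 myogenic markers had a row, led by Myod1, the myogenic regulator of activated MuSCs, at 1421 ± 99.5 CPM in control and 1276 ± 199 CPM in Piezo1 cKO, and Pax7, the MuSC transcription factor, was at 21.4 ± 7.14 and 13.9 ± 6.80 CPM. Of the 7 tested, 4 had estimates above and 3 below 0 and 0 were called by edgeR or by DESeq2. At an unadjusted p below 0.05 were Cdh15, encoding M-cadherin (log2 fold change 0.53; edgeR adjusted p = 0.118), and Vcam1, the positive sort marker (log2 fold change -0.45; edgeR adjusted p = 0.185), both without overlap. Over all tested genes 11.9% reached that threshold and 16.5% had groups without overlap, so such values were common in this table. Endothelial markers summed to between 1.15 and 18.1 CPM in the 6 libraries, led by Tek. Cd68, the only haematopoietic marker with a row, lay between 7.002 and 14.2 CPM. Smooth muscle and pericyte markers summed to 4.201, 4.35 and 10.4 CPM in control 1 to 3 and to 9.88, 21.88 and 21.94 CPM in Piezo1 cKO 1 to 3. Notch3 led this list at 5.53 ± 2.18 and 12.4 ± 4.32 CPM with overlapping groups, and Rgs5 had 0 or 1 count in control and 2 to 6 in Piezo1 cKO libraries. Schwann cell markers summed to between 2.57 and 12.6 CPM, led by Mbp. A level of 3 counts corresponds to 3.26 to 4.20 CPM in these libraries. Among the fibro-adipogenic markers Cd34 stood out at 122 ± 58.3 and 41.0 ± 9.97 CPM (edgeR adjusted p = 0.182, called by DESeq2); satellite cells also express it, and it was the only gene of its list to pass the count filter. Ly6a, which encodes the Sca1 antigen selected against in the sort, measured 2.81 ± 0.639 and 9.36 ± 2.84 CPM in control and Piezo1 cKO, without overlap, on 2 to 9 counts per library. Pdgfra was at 6.02 ± 2.99 and 2.13 ± 1.51 CPM and Lum at 2.23 ± 2.97 and 0.842 ± 0.730 CPM, both overlapping. The part of such cells in the members' values was not tested.

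**Figure D1:**
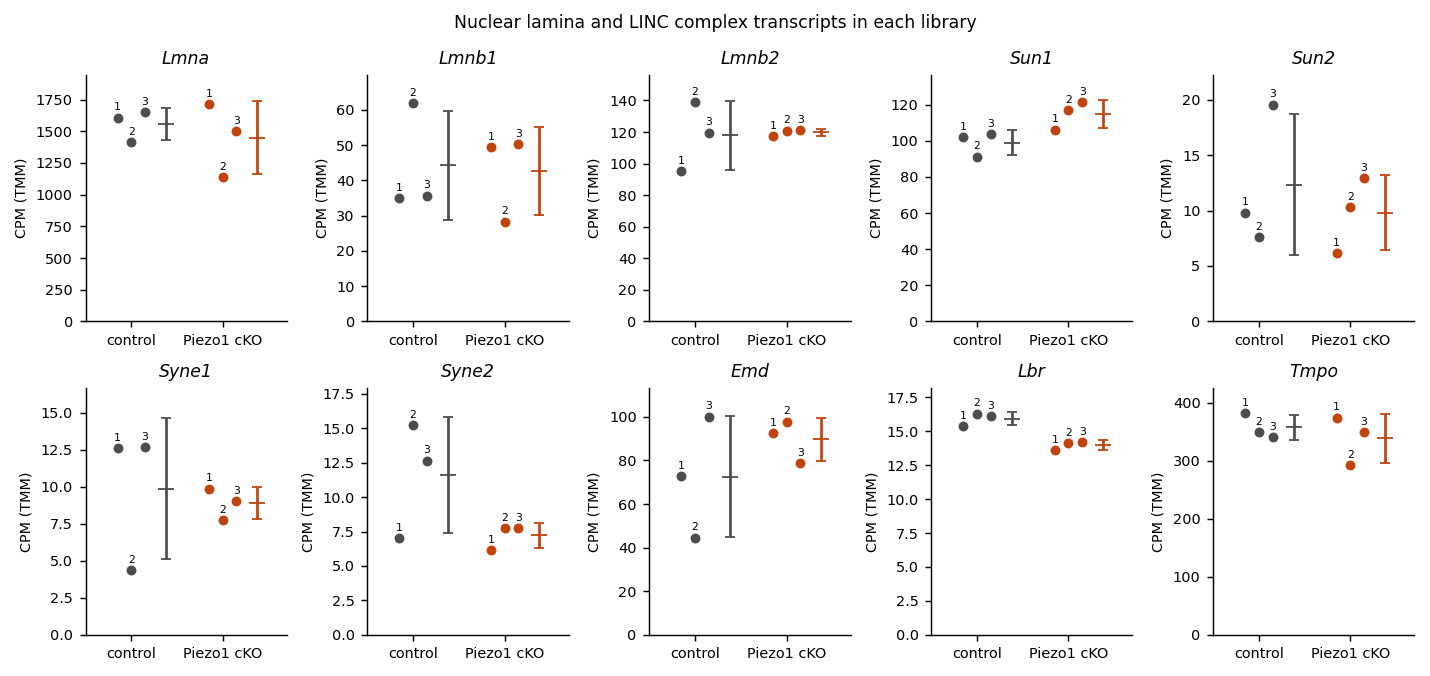
Level of each of the 10 members in every library, in CPM after TMM scaling, on axes that start at 0. Points are libraries with their replicate number (grey, control; orange, Piezo1 cKO), and bars are mean ± SD with n = 3. The groups overlap for 8 genes and do not overlap for Sun1 and Lbr.

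Lmna, which encodes lamin A and lamin C (chr3:88480147-88509956, minus strand), was by far the most abundant member. It stood at 1608, 1416 and 1649 CPM in control 1 to 3 and at 1712, 1138 and 1500.0 CPM in Piezo1 cKO 1 to 3. Piezo1 cKO 1 held the highest value of all and Piezo1 cKO 2 the lowest, so the control range lay inside that of Piezo1 cKO. The means were 1557 ± 124 and 1450 ± 290 CPM, and the log2 fold change was -0.10 (SE 0.15; edgeR adjusted p = 0.863). It had the most counts of the members, 884 to 1433 per library, and its 95% interval ran from 0.754-fold to 1.15-fold. Without Piezo1 cKO 2 the log2 fold change was 0.04. Lamin A and lamin C arise by alternative 3′ splicing of the same gene and are added together in a gene count, so their balance was not measured.

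Lmnb1, encoding lamin B1, the B-type lamin that declines in senescent cells (chromosome 18, plus strand), was a low gene here. Control 1 to 3 held 35.0, 61.9 and 35.7 CPM, and Piezo1 cKO 1 to 3 held 49.4, 28.3 and 50.3 CPM. Control 2 was the highest library and Piezo1 cKO 2 the lowest, while the remaining 4 libraries lay between 35.0 and 50.3 CPM with the Piezo1 cKO pair above the control pair. The means of 44.2 ± 15.4 and 42.7 ± 12.5 CPM did not differ beyond this spread (log2 fold change -0.07, SE 0.25; edgeR adjusted p = 0.953). That estimate was carried by the extremes, since it was 0.28 without control 2, 0.15 without Piezo1 cKO 2 and 0.49 without both, none past the threshold.

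Lmnb2, encoding lamin B2 (chr10:80901203-80918245, minus strand), was the more abundant B-type lamin. Its counts were 68, 128 and 104 in control 1 to 3 and 95, 94 and 94 in Piezo1 cKO 1 to 3. In CPM these were 95.2, 139 and 119.6 against 117, 121 and 121, so all Piezo1 cKO values lay inside the control range. The means were 118 ± 22.0 and 119.9 ± 2.22 CPM (log2 fold change 0.01, SE 0.16; edgeR adjusted p = 0.988), and the 95% interval ran from 0.808-fold to 1.26-fold. The sign of so small a value turned with the libraries kept.

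The proportion of A-type to B-type lamins, a property known to vary with tissue stiffness, was taken as the Lmna count over the summed Lmnb1 and Lmnb2 counts. It was 12.3, 7.04 and 10.6 in control 1 to 3 and 10.3, 7.62 and 8.74 in Piezo1 cKO 1 to 3. The lowest values of both groups were those of the libraries numbered 2, control 2 having the highest Lmnb1 and Lmnb2 and the lowest Lmna of its group, and Piezo1 cKO 2 the lowest Lmna of all. Means were 10.0 ± 2.703 and 8.87 ± 1.33, and the groups overlapped. The log2 difference of -0.14 turned to 0.03 without control 1 and was -0.38 without control 2, -0.25 without Piezo1 cKO 1 and -0.04 without Piezo1 cKO 2. With each gene divided by the length of its longest coding transcript the ratio was 10.5 ± 2.89 and 9.33 ± 1.30. The ratio of Lmnb2 to Lmnb1 counts was 2.77 ± 0.557 in control and 3.02 ± 1.09 in Piezo1 cKO, also overlapping.

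Sun1, which encodes the SUN protein that also tethers telomeres in meiosis (chr5:139200637-139249840, plus strand), was the main LINC transcript. It measured 102.2, 91.3 and 103.5 CPM in control 1 to 3 and 106, 117 and 121 CPM in Piezo1 cKO 1 to 3. Every library labelled Piezo1 cKO lay above every control library, and the groups stayed apart when scaled by total counts or by DESeq2 size factors. The difference was nonetheless small, with means of 99.0 ± 6.73 and 115 ± 7.81 CPM and a log2 fold change of 0.22 (SE 0.16; edgeR adjusted p = 0.648; 95% interval 0.928-fold to 1.45-fold). An exact two-sided permutation test gave p = 0.1, the smallest that 3 against 3 libraries allow. Groups without overlap were common in this table, at 16.5% of all tested genes and 8.2% in the higher direction. The antisense gene 4930520M14Rik overlaps Sun1, and whether the counting used strand is not given in the sources used here.

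Sun2, the partner SUN gene (chr15:79724070-79742536, minus strand), was near the lower limit of measurement. Only 7, 7 and 17 counts were found in control 1 to 3 and 5, 8 and 10 in Piezo1 cKO 1 to 3. These correspond to 12.3 ± 6.36 and 9.79 ± 3.39 CPM with overlapping groups, and the gene did not pass the count filter (edgeR adjusted p = 0.781 without the filter). The pooled rate ratio was 0.787, and its exact 95% interval of 0.438 to 1.39 covers counting error only. The antisense gene Gm16575 overlaps it. Sun1 made up 89.2 ± 4.46% of the summed Sun1 and Sun2 counts in control and 92.3 ± 2.08% in Piezo1 cKO. Sun3, a SUN gene mainly of the testis, had 0 counts in every library.

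The giant nesprins were sparse. Syne1, encoding nesprin-1, which places myonuclei in muscle fibres (chr10:5020917-5551482, minus strand), had 9, 4 and 11 counts in control 1 to 3 and 8, 6 and 7 in Piezo1 cKO 1 to 3. This was 9.87 ± 4.78 and 8.88 ± 1.09 CPM, overlapping, with a pooled rate ratio of 0.928 (exact 95% interval for counting error, 0.491 to 1.74). Syne2, encoding nesprin-2 (chr12:75818134-76110926, plus strand), had 5, 14 and 11 counts in control 1 to 3 and 5, 6 and 6 in Piezo1 cKO 1 to 3. Control 2 and control 3 lay above all Piezo1 cKO libraries while control 1 lay among them, and means were 11.6 ± 4.20 and 7.21 ± 0.900 CPM. The rate ratio for Syne2 of 0.601 had an exact interval of 0.311 to 1.12. Neither nesprin gene passed the count filter. The intervals give the ratios that counting error allows, leave out the spread between libraries, and are not a limit of detection. Without that filter the edgeR log2 fold change was -0.12 for Syne1 (SE 0.49, adjusted p = 0.954) and -0.72 for Syne2 (SE 0.49, adjusted p = 0.725). Both genes have many transcripts with different 3′ ends, some of which lack the domain that reaches SUN proteins, and gene counts do not tell them apart.

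Among the inner nuclear membrane genes, Emd, encoding emerin (chrX:74254687-74261548, plus strand), had the largest tested estimate of the members. Its values were 72.8, 44.6 and 100.1 CPM in control 1 to 3 and 92.6, 97.8 and 78.7 CPM in Piezo1 cKO 1 to 3. Control 2 lay far below the rest and control 3 was the highest of all, so the control range enclosed that of Piezo1 cKO. Means were 72.5 ± 27.8 and 89.7 ± 9.85 CPM (log2 fold change 0.31, SE 0.20; edgeR adjusted p = 0.573; 95% interval 0.937-fold to 1.65-fold). The estimate was 0.05 without control 2 and 0.64 without control 3. The pseudogene Gm14686 overlaps Emd on the same strand.

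Lbr, the lamin B receptor (chr1:181815335-181843046, minus strand), showed a narrow spread at a low level. It had 11, 15 and 14 counts in control 1 to 3 and 11 in each Piezo1 cKO library. After TMM scaling the control values of 15.4, 16.3 and 16.1 CPM lay above the Piezo1 cKO values of 13.6, 14.2 and 14.2 CPM, with 8.31% of tested genes showing groups apart in this direction. The groups overlapped when scaled by total counts alone. The log2 fold change was -0.19 with a wide interval, from 0.526-fold to 1.46-fold (SE 0.37; edgeR adjusted p = 0.902), because so few molecules were counted. The gene overlaps Dnah14 on the opposite strand.

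Tmpo, encoding the LAP2 proteins (chr10:91147571-91181315, minus strand), was the second most abundant member. It stood at 382, 349 and 340.5 CPM in control 1 to 3 and at 374, 292 and 350 CPM in Piezo1 cKO 1 to 3. Piezo1 cKO 2 was again the lowest library, and the other Piezo1 cKO libraries fell within the control range. With means of 357 ± 22.1 and 339 ± 42.2 CPM, the log2 fold change was -0.07 (SE 0.13; edgeR adjusted p = 0.898; 95% interval 0.790-fold to 1.14-fold). Membrane-bound LAP2 and the nucleoplasmic LAP2 alpha, which binds A-type lamins inside the nucleus, share this gene count.

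**Figure D2:**
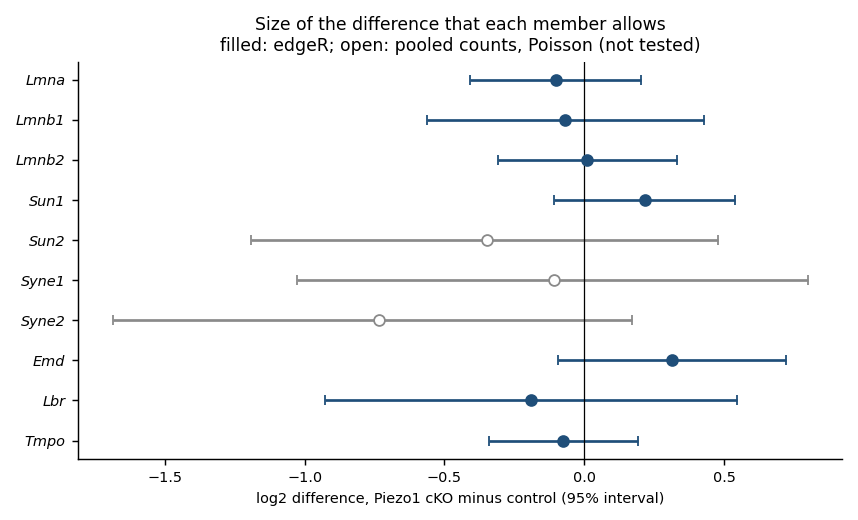
Log2 difference of Piezo1 cKO from control for each member with its 95% interval. Filled points are edgeR fits with 3 libraries per group; open points are pooled-count ratios of the 3 members under the count filter, with exact intervals for counting error only. Every interval spans 0, and the narrowest are those of Tmpo and Lmna.

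Levels were then compared between members per kb of the longest coding transcript. Lmna came first at 493 ± 39.3 CPM per kb in control, followed by Tmpo at 94.7 ± 5.87, Emd at 45.4 ± 17.4, Lmnb2 at 33.4 ± 6.23, Sun1 at 24.0 ± 1.63 and Lmnb1 at 15.5 ± 5.40 CPM per kb. Lbr at 4.54 ± 0.134, Sun2 at 3.24 ± 1.67, Syne2 at 0.536 ± 0.194 and Syne1 at 0.354 ± 0.171 CPM per kb closed the order. Emd and Lmnb2, Lbr and Sun2, and Syne2 and Syne1 overlapped between libraries of the control group, so their order within each pair was not resolved. In Piezo1 cKO the order of the 10 genes by mean level per kb was the same, from Lmna at 459 ± 92.0 to Syne1 at 0.318 ± 0.0390 CPM per kb. Tags primed at the poly(A) tail need not scale with transcript length, and without division by length Emd moved below Lmnb2 and Sun1 in CPM in control, while the other genes kept their order.

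Control 2 and Piezo1 cKO 2 also stood apart in cell state. Summed over the cell cycle list, levels were 5692, 6235 and 5697 CPM in control 1 to 3 and 5641, 4276 and 4957 CPM in Piezo1 cKO 1 to 3. Summed over the muscle differentiation list, led by the CDK inhibitor gene Cdkn1a, they were 1707, 1145 and 1609 CPM against 1951, 3429 and 2317 CPM. Control 2, with the highest Lmnb1 and Lmnb2, thus had the highest cell cycle and the lowest differentiation sum. Piezo1 cKO 2, with the lowest Lmna, Lmnb1 and Tmpo, had the lowest cell cycle and the highest differentiation sum. Piezo1 cKO 1, with the highest Lmna, and control 1, with the lowest Lmnb2, lay between them on both sums. The part of cell state in the lamin values was not tested.

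**Figure D3:**
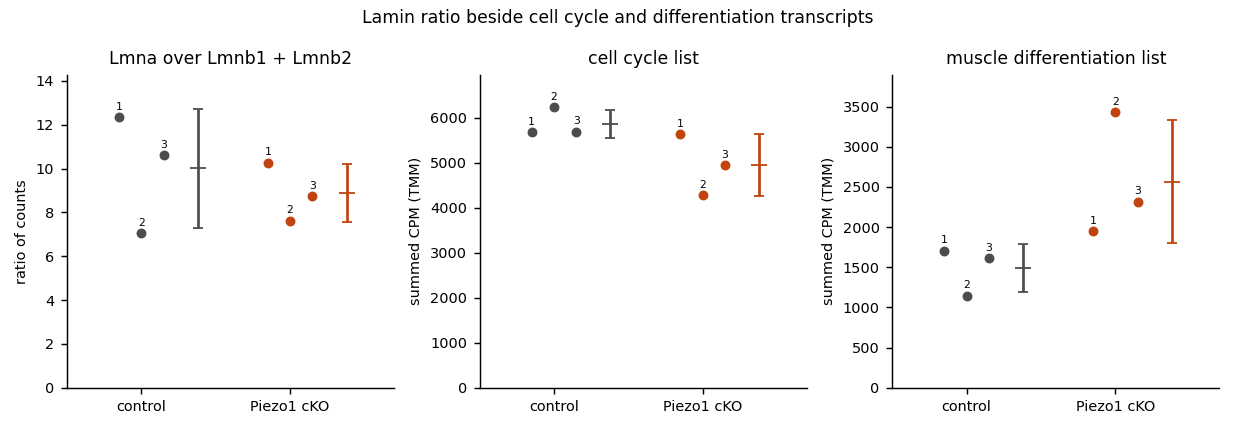
Left, ratio of Lmna counts to summed Lmnb1 and Lmnb2 counts; middle and right, summed CPM of the cell cycle and muscle differentiation lists. Points are libraries with their replicate number and bars are mean ± SD (n = 3). Control 2 and Piezo1 cKO 2 have the lowest lamin ratios, 7.04 and 7.62, and lie at opposite ends of both list sums.

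In the same lists, 22 of 23 tested cell cycle genes had a log2 fold change below 0, against 49.8% of all tested genes, with a median of -0.25. Of the 23 genes, 1 was called lower, against 0.316% of all tested genes. This was Cenpf, a kinetochore protein that also docks at the nuclear envelope before mitosis, at 137, 139 and 129.99 CPM in control 1 to 3 and 96.3, 88.8 and 76.2 CPM in Piezo1 cKO 1 to 3 (log2 fold change -0.63, SE 0.16; edgeR adjusted p = 0.0293). Without control 2 and Piezo1 cKO 2 the split was 16 below and 7 above 0 with a median of -0.07 (-0.16 without control 2 and -0.12 without Piezo1 cKO 2 alone). This pair was picked after seeing the data, as the extremes of both list sums, so leaving it out brings the groups closer in these sums by construction. Cenpf was then not called, nor was it without control 1, control 2, Piezo1 cKO 2 or Piezo1 cKO 3 alone, by DESeq2, with total counts or cyclic loess as the scaling, or with the replicate block. Of 17 tested muscle differentiation genes 16 had a log2 fold change above 0, with a median of 1.96, and 2 were called higher, against 0.468% of all tested genes. Without control 2 and Piezo1 cKO 2 there were 13 above and 4 below 0, with a median of 0.93 and 8 genes called, and DESeq2 with all libraries called Actn3 and Acta1, skeletal alpha-actin. Actn3, the alpha-actinin of fast fibres, had 62.4 ± 16.6 and 143 ± 15.6 CPM (log2 fold change 1.20, SE 0.18; edgeR adjusted p = 1.0e-05), and Tnni2, fast troponin I, had 5.06 ± 3.14 and 22.0 ± 7.95 CPM (log2 fold change 2.16, SE 0.45; edgeR adjusted p = 0.00459). Actn3 was called with each library left out, by DESeq2 and by limma-voom. Tnni2 was not called without Piezo1 cKO 2 or without control 2 and Piezo1 cKO 2 together, DESeq2 gave it no adjusted p, and a filter of at least 10 counts in every library left it untested. That filter kept 8 genes of the list, 7 above and 1 below 0, with a median of 0.94 and 1 called, Actn3. Some of the 17 genes, such as Tnni2 and Actc1, reached 10 counts only in Piezo1 cKO libraries, so the median of 1.96 and the Tnni2 call rest partly on genes kept through the group where they were high. The members' median stood at -0.07, beside 0.0023 for all tested genes.

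Genes that work with the lamina and the LINC complex were examined through 4 further lists, and 0 of their tested genes were called by edgeR or by DESeq2. Of 25 nuclear envelope partners, 19 were tested, with 10 estimates above and 9 below 0 and a median of 0.02. Of these 1 reached an unadjusted p below 0.05, against 11.9% of all tested genes. Banf1, the chromatin-bridging protein bound by emerin and LAP2, had 804 ± 16.2 and 674 ± 80.3 CPM (log2 fold change -0.25, SE 0.14; edgeR adjusted p = 0.469). Tor1aip2, an activator of the torsin ATPases, had 195 ± 24.6 and 216 ± 9.54 CPM, and Tmem43, a lamin-binding protein of the inner membrane, had 197 ± 15.3 and 189.8 ± 23.0 CPM, both with overlapping groups. Mlip, a lamin-interacting protein of muscle and heart, had 0 counts in every library, as had Sun3. Tmem38a, a potassium channel of the sarcoplasmic reticulum and nuclear envelope named here after its values were seen, was the largest estimate of the list (log2 fold change 0.95, SE 0.33; edgeR adjusted p = 0.193) and was called when Piezo1 cKO 1 was left out.

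The lamin processing list covers the enzymes that farnesylate, cleave and methylate the C terminus of prelamin A and B-type lamins, with Narf, a prelamin A-binding protein. All 6 genes were tested, 3 with estimates above and 3 below 0, the median was 0.03, and 0 reached an unadjusted p below 0.05. The median was -0.12 without Piezo1 cKO 1, with 2 above and 4 below 0, and 0.14 without control 2, with 4 above and 2 below. It was 0.23 without control 2 and Piezo1 cKO 2. Fnta, a farnesyltransferase subunit, had 150.5 ± 13.7 and 125 ± 4.47 CPM (log2 fold change -0.26, SE 0.15; edgeR adjusted p = 0.507), with groups that did not overlap. Zmpste24, the protease that matures prelamin A, had 131 ± 18.2 and 137 ± 26.5 CPM, and Rce1, the CAAX protease, had 91.5 ± 9.80 and 91.0 ± 28.3 CPM, both overlapping. Narf, named after its values were seen, had the largest estimate of the list (log2 fold change 0.71, SE 0.36; edgeR adjusted p = 0.425).

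The LINC cytoskeletal partners, which are motors, motor adaptors, centrosome proteins and linkers to actin or intermediate filaments, gave 8 estimates above and 6 below 0 among 14 tested of 16, with a median of 0.06. Without Piezo1 cKO 1 the split was 10 above and 4 below 0, with a median of 0.15. Without control 2 it was 7 above and 7 below, with a median of 0.00022. Without control 2 and Piezo1 cKO 2 it was 6 above and 8 below, with a median of -0.08. Kif5b, the kinesin-1 heavy chain, had 299 ± 33.1 and 306 ± 15.5 CPM, Plec, encoding the plectin that links nesprin-3 to intermediate filaments, 291 ± 37.4 and 273 ± 66.6 CPM, and Nde1, a dynein regulator, 128 and 125 CPM. At an unadjusted p below 0.05 there were 2 genes above and 2 below 0 in this list, which is 4 of 14 against 11.9% of all tested genes. Below 0 were Pcnt, pericentrin (log2 fold change -0.68, SE 0.26; edgeR adjusted p = 0.229), and Akap9 (log2 fold change -0.48, SE 0.19; edgeR adjusted p = 0.240), both scaffolds of the centrosome and, in muscle cells, of the nuclear surface. Above 0 were Dync1h1, the dynein heavy chain (log2 fold change 0.43; edgeR adjusted p = 0.338), and Klc1, a kinesin light chain (log2 fold change 0.33; edgeR adjusted p = 0.403). These 4 were named after their values were seen, and only Dync1h1 was called in any alternative, without control 3.

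Nuclear pore genes had 23 of 29 tested estimates below 0, with a median of -0.09, where 49.8% of all tested genes had estimates below 0. The split was 14 of 29 without control 2 and Piezo1 cKO 2. These held the highest control and the lowest Piezo1 cKO sum of this list, 3433 and 2794 CPM, so leaving both out narrows that difference by construction. With total counts as the scaling, which moved the median of all tested genes from 0.0023 to 0.073, it was 18 of 29 with a list median of -0.02. The only gene of this list at an unadjusted p below 0.05 was Tpr, the filament protein of the nuclear basket, which stood at 273, 276 and 236 CPM in control 1 to 3 and at 199, 189 and 169 CPM in Piezo1 cKO 1 to 3. These groups did not overlap, and the log2 fold change of -0.49 (SE 0.14) narrowly missed the threshold (edgeR adjusted p = 0.0637). It was called with DESeq2 size factors, at a threshold of 0.1, without control 3 and without Piezo1 cKO 1. Sec13, a coat nucleoporin shared with COPII vesicles, had 338 ± 9.08 and 323 ± 19.6 CPM, and Nup62, of the central channel, had 244 and 207 CPM (log2 fold change -0.24; edgeR adjusted p = 0.510).

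**Figure D4:**
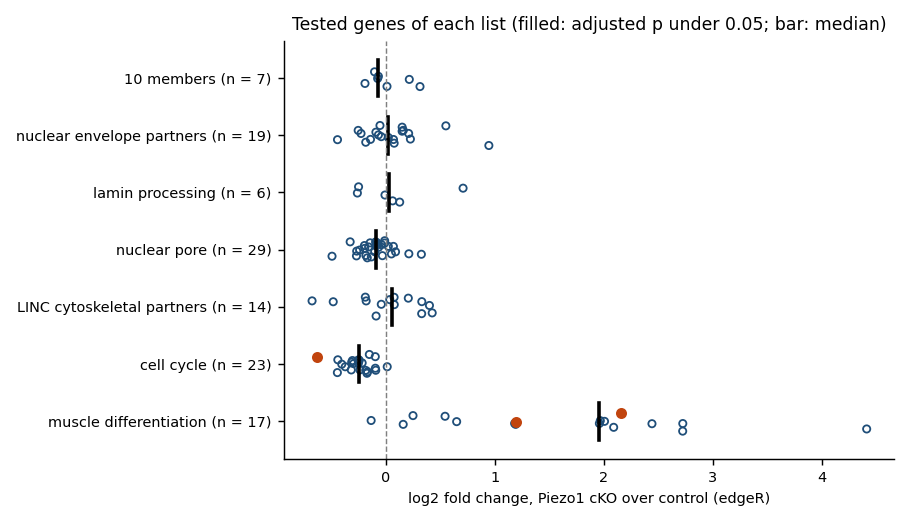
Log2 fold change of Piezo1 cKO over control for each tested gene of the 10 members and of the 6 context lists (edgeR). Vertical bars are medians, and filled points are the 3 genes with an adjusted p below 0.05, Cenpf, Actn3 and Tnni2. The members lie between -0.19 and 0.31.

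The members' estimates were recomputed under each processing alternative. Of 112 values, 100 kept their direction, 12 reversed and 0 passed the threshold, with no adjusted p for Lmnb1 and Lbr under DESeq2. The reversal of Lmnb2 with DESeq2 size factors, to -0.0035, came with a shift of the median of all tested genes to -0.012. Sun1 lay between 0.14 and 0.29 and Lbr between -0.25 and -0.02 throughout, so neither changed sign, whereas Lmna, Lmnb1, Lmnb2, Emd and Tmpo each took both signs. The smallest adjusted p of any member under any alternative was 0.138.

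**Figure D5:**
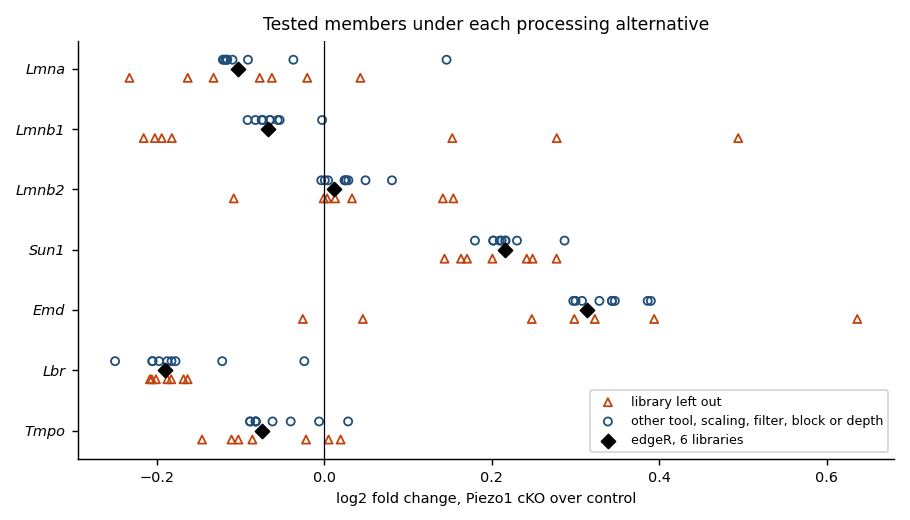
Log2 fold change of each tested member with 6 libraries and edgeR (diamonds), with other tools, scalings, filters, block or depth (circles), and with libraries left out (triangles). Sun1 and Lbr stay on their side of 0, and the widest ranges belong to Lmnb1 and Emd.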

How the data were processed

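The authors deposited a table of UMI counts per gene for 3 control and 3 Piezo1 cKO libraries. Per their methods, 500 pg of total RNA was primed with barcoded oligo-dT, amplified for 12 PCR cycles, fragmented with Nextera XT and sequenced with paired ends. Per the submitters' notes, reads were mapped with STAR 2.7.9a to GRCm38 and counted with featureCounts 2.0.1 and UMI-tools 1.1.1. Strand and multi-mapping settings are not given in the sources used here. UMIs remove PCR copies, and intervals on counts cover counting error only.

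The members and gene lists were chosen with earlier results of these data known. The 8551 genes kept by filterByExpr (minimum count 10) were fitted in edgeR 4.0.16 (R 4.3.3; TMM, robust quasi-likelihood test, Benjamini-Hochberg adjustment, threshold 0.05), with no covariate. The study used DESeq2, which was an alternative here (version 1.42.0), as was limma-voom (limma 3.58.1). Other alternatives were the scaling, the filter, a replicate block, thinning to the smallest library, a threshold of 0.1 and each library left out. The fits were tested on simulated data. Named genes were all members and Piezo1, every called gene of a context list or otherwise its 3 most abundant tested genes, and the most abundant marker of each other cell type with any marker at 0. The markers Cdh15, Vcam1, Pax7, Rgs5, Ly6a, Pdgfra and Lum were named outside this rule, as were the genes said to be named for their values. Coordinates are those of GENCODE for GRCm38. Listed genes without a row are not analysed here.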

Additional observations from a re-analysis of the deposited data

How the results depend on the processing

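The count of genes called over the whole table, 67, was 27 with DESeq2 (12 higher and 15 lower), 32 with cyclic loess scaling, 129 without a count filter and 124 at a threshold of 0.1, and with total counts as the scaling its split moved from 40 higher and 27 lower to 45 higher and 18 lower. Leaving out 1 library gave 6 to 155 calls: 105 without control 1, 130 without control 3, 155 without Piezo1 cKO 1, 6 without Piezo1 cKO 2 and 29 without Piezo1 cKO 3. Lists of nuclear envelope context held 0 calls, 1 with DESeq2 size factors, 1 at a threshold of 0.1, and 0 to 2 with 1 library left out. Cell cycle and muscle differentiation lists held 3 calls, 8 without a filter and 2 to 9 with 1 library left out.

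Members called stayed at 0 in every alternative. Estimates that reversed were Lmna with cyclic loess (0.15) and without Piezo1 cKO 2 (0.043; -0.23 to 0.043 with each library left out in turn), Lmnb1 without control 2 (0.28) and without Piezo1 cKO 2 (0.15; -0.22 to 0.28), Lmnb2 with DESeq2 size factors (-0.0035), without control 1 (-0.11) and without Piezo1 cKO 3 (-0.00061; -0.11 to 0.15), and Tmpo with cyclic loess (0.029) and without Piezo1 cKO 2 (0.020; -0.15 to 0.020). With control 2 and Piezo1 cKO 2 both left out, an alternative chosen after seeing the data, 47 genes were called (22 higher and 25 lower), and Lmnb1 was 0.49, Emd -0.026 and Tmpo 0.0052. The cause of these reversals was not tested. Piezo1 ranged from 0.14 to 0.93 with 1 library left out and was not called.

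Same-numbered libraries did not deviate together (correlations of deviations -0.14, -0.20 and 0.012, against 0.23 for control 2 with Piezo1 cKO 1). Deviations from the mean of only 3 libraries per group cannot decide whether the numbers are a pairing, and the labels do not say. A fit that held the replicate number as a block called 46 genes and 0 members. Depth limits the low members most: Sun2, Syne1, Syne2 and Lbr had 4 to 17 counts per library.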

Other observations

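Beyond the lists above, genes of traffic through the nuclear envelope and of the chromatin beneath it were summarised from 2 lists written after the members' values were seen. Of 29 nuclear transport receptors and Ran-cycle genes, all tested, 22 had a log2 fold change below 0 and 7 above, with a median of -0.09, and 0 were called by edgeR or by DESeq2. At an unadjusted p below 0.05 there were 4, all below 0, against 11.9% of all tested genes in either direction. Ran, the GTPase that sets the direction of nuclear transport, stood at 1430, 1298 and 1127 CPM in control 1 to 3 and at 1011, 853 and 1039 CPM in Piezo1 cKO 1 to 3 (log2 fold change -0.41, SE 0.15; edgeR adjusted p = 0.187). Ranbp1, its binding protein, had 1014 ± 55.6 and 787 ± 142 CPM (log2 fold change -0.37, SE 0.14; edgeR adjusted p = 0.249). Cse1l, the export receptor of importin alpha, had 304 ± 45.3 and 248 ± 20.8 CPM (log2 fold change -0.30; edgeR adjusted p = 0.360). The groups did not overlap for any of these genes, which were the most abundant of the list. In the whole list, 6 of 29 genes had groups apart in this direction, against 8.31% of all tested genes. The split of the list was 18 below and 11 above 0 with total counts as the scaling, which moved the median of all tested genes from 0.0023 to 0.073, 16 and 13 without control 2, and 15 and 14 without control 2 and Piezo1 cKO 2. The list summed to 5431, 6021 and 5325 CPM in control 1 to 3 and to 5208, 4290 and 4959 CPM in Piezo1 cKO 1 to 3, again with control 2 highest and Piezo1 cKO 2 lowest. Leaving both out thus narrows the difference of these sums by construction. The part of cell cycle state in these values was not tested.

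Of 14 genes for the heterochromatin held at the lamina, 8 had a log2 fold change below 0 and 6 above, with a median of -0.01, and 0 were called by edgeR or by DESeq2. In that list 1 gene was at an unadjusted p below 0.05, against 11.9% of all tested genes. This was Cbx1, named for that p and encoding the heterochromatin protein HP1 beta, at 174, 153 and 133 CPM in control 1 to 3 and 105, 122 and 99.4 CPM in Piezo1 cKO 1 to 3 (log2 fold change -0.49, SE 0.16; edgeR adjusted p = 0.131), without overlap. The most abundant genes of the list were Hnrnpu, a nuclear matrix protein, at 1135 ± 72.6 and 933 ± 209 CPM, and Trim28, a corepressor that recruits HP1, at 348 ± 34.0 and 319 ± 41.1 CPM. The next, Cbx5, encoding HP1 alpha, a partner of Lbr, had 239 ± 20.3 and 218 ± 8.55 CPM, and the groups overlapped for all 3. The split was 4 above and 10 below 0 with cyclic loess and 9 above and 5 below with total counts, under the same shift of all genes.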
